A study of Danio rerio with 36 samples.

Results

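DRD3, DRD2 and ADRB3 are 3 genes for receptors of catecholamines, described here in zebrafish eye tissues out of 31916 genes in the deposited tables. DRD3 (ENSDARG00000032131) and DRD2 (ENSDARG00000011091) are annotated as dopamine receptor genes, and ADRB3 (ENSDARG00000053646) as a beta-adrenergic receptor gene. Symbols in capitals are those of the human counterpart, and the symbol DRD2 stands for 2 gene IDs in the tables, so DRD2 without an ID means ENSDARG00000011091. The genes were chosen with results of the lrp2 comparisons known. Their differences between lrp2 mutant and wild type are therefore a description without a test, whereas wild-type tissues and larval transgenics were compared with one.

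Total RNA was sequenced in bulk from 36 libraries in 12 groups of 3. At 1 month after fertilization, the tissues were whole eyes and, by dissection, the retina, the sclera together with the choroid, and the retinal pigment epithelium (RPE). They came from fish labelled lrp2-/- and from a wild type that the titles call ZDR. The titles of the mutant libraries name no such line, so line and genotype cannot be told apart in comparisons of mutants with wild type. Whole eyes of larvae at 5 days carried a transgene in which the heat-inducible hsp70l promoter drives either bmp4 joined to eGFP or shha joined to eGFP. Each transgenic group had its own wild-type control, and the labels give no scheme of heat shocks. They do not give the kind of lrp2 mutation either, nor state that libraries came from separate animals, so p-values cover the variation among libraries alone, and that variation may be technical. LRP2 is a large endocytic receptor of epithelia, and the title of the study relates its processing in the RPE and BMP activity to eye size and refractive error. All fish were kept under 14 hours of light and 10 hours of darkness.

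Dopamine receptors are G protein-coupled receptors of 2 classes. DRD2, DRD3 and DRD4 couple to inhibitory G proteins and lower cyclic AMP, whereas DRD1 and DRD5 couple to the stimulatory G protein and raise it. In the vertebrate retina dopamine is released by a sparse population of amacrine or interplexiform cells, takes part in light adaptation and has been linked to the control of eye growth. Beta-adrenergic receptors bind noradrenaline and adrenaline and couple to the stimulatory G protein, and ADRB3 is best known in mammals for its action in adipose tissue.

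Libraries held between 17543343 and 26708466 assigned counts. Markers of the pigment epithelium summed to 19700 to 27400 TPM (a relative level corrected for gene length) in wild-type RPE and to 14700 to 21200 TPM in mutant RPE, and averaged at most 404 TPM in any group of retina or sclera/choroid. RPE libraries also held photoreceptor RNA, with rod markers at 2560 to 16100 TPM in wild type and 1640 to 5110 TPM in mutants. Wild-type retina replicate 12 stood apart in lens markers, at 12710 TPM against 69.84 and 77.36 in the other wild-type retinas. Without it the log2 differences between mutant and wild-type retina were 3.12 for DRD3, 1.04 for DRD2 and 1.69 for ADRB3, beside 2.96, 0.90 and 1.76 with it. LRP2 reads were present in both genotypes, so the counts do not check the label lrp2-/-. LRP2 was called lower in mutant retina (log2 difference −0.456, edgeR adjusted p = 0.0046), where 19.5% of all genes were called. It was not called in whole eyes, RPE or sclera/choroid. BMP4 had 5555 to 6737 counts in bmp4 transgenic libraries and 171 to 204 in their controls. In these bulk tissues, fewer cells of a type and less RNA per cell cannot be told apart.

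DRD3 was low in every wild-type tissue and higher in lrp2 mutants in all 4 tissues. In wild-type RPE the 3 libraries measured 0.31, 0.21 and 0.29 TPM, which rested on 6 to 7 counts each. In lrp2 mutant RPE they measured 7.34, 7.18 and 5.94 TPM, on 191 to 195 counts. Every mutant library stood far above every wild-type library, and the mean went from 0.27 ± 0.0529 to 6.82 ± 0.766 TPM (SD, n = 3), a ratio of 25.3.

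The sclera/choroid showed the same order of genotypes for DRD3. Its 3 wild-type libraries measured 0.13, 0.22 and 0.16 TPM, from 4 to 6 counts, and its mutant libraries 7.21, 7.63 and 6.32 TPM, from 168 to 239 counts. The groups did not overlap, and the ratio of the means was 41.5. With so few counts in wild type, ratios in RPE and sclera/choroid carry a large counting error in their lower term.

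Retina held the most DRD3 in both genotypes. Wild-type retinas measured 1.33, 2 and 1.7 TPM and mutant retinas 13.09, 13.07 and 12.21 TPM, again without overlap and with a ratio of 7.63. Whole eyes measured 0.64, 1.45 and 1.94 TPM in wild type and 5.19, 5.42 and 8.13 TPM in mutants. The wild-type eyes differed more among themselves than other wild-type groups did in TPM, yet the lowest mutant eye exceeded the highest wild-type eye.

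**Figure D1:**
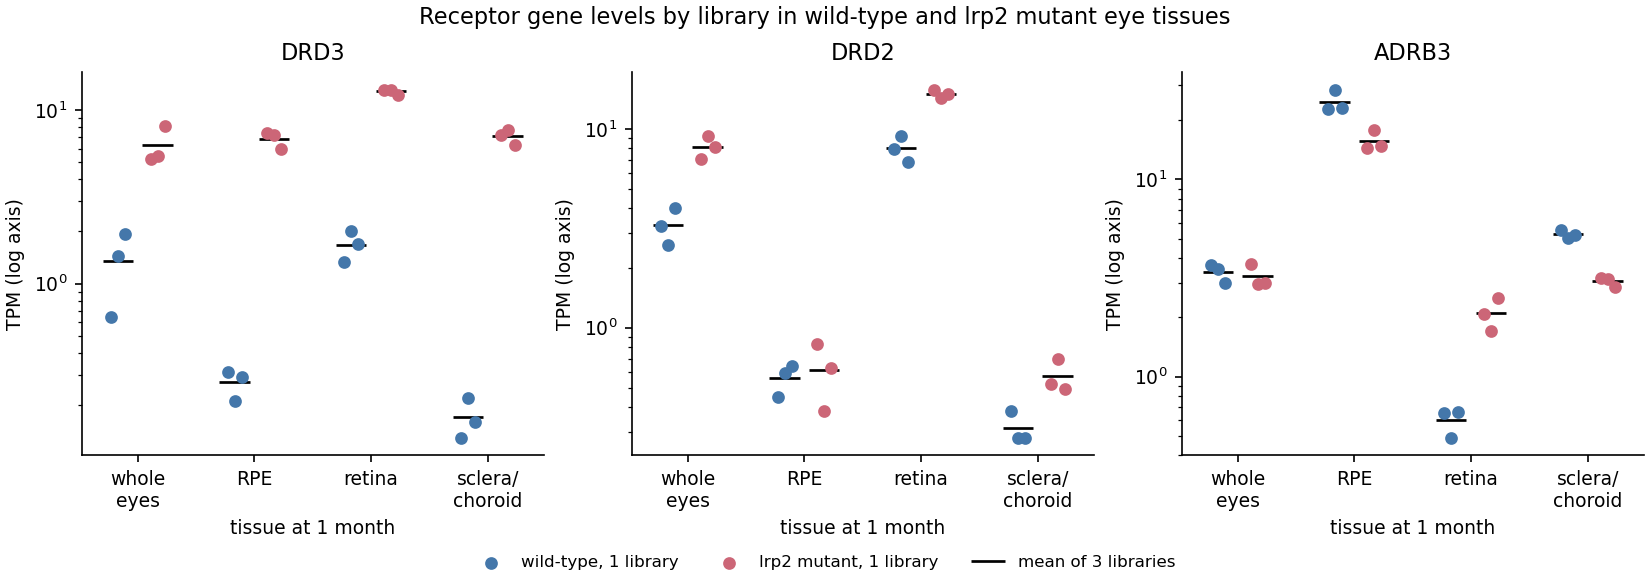
Level of each receptor gene in TPM (log axis) in every library of 1 month, by tissue, with wild type and lrp2 mutants side by side; points are libraries and black bars means of 3. Mutant DRD3 points lie above all wild-type points in the same tissue, DRD2 separates the genotypes clearly in whole eyes and retina, and ADRB3 is lower in mutant RPE and sclera/choroid but higher in mutant retina.

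On the log2 scale of the fitted counts, mutants exceeded wild type in DRD3 by 1.98 (SE 0.379) in whole eyes, 4.74 (SE 0.25) in RPE, 2.96 (SE 0.165) in retina and 5.34 (SE 0.25) in sclera/choroid. Ordered by group mean, mutant retina came first at 12.8 ± 0.502 TPM (SD, n = 3). Mutant sclera/choroid (7.05 ± 0.669 TPM), mutant RPE and mutant whole eyes (6.25 ± 1.64 TPM) followed and overlapped one another. Below them wild-type retina (1.68 ± 0.336 TPM) and wild-type whole eyes (1.34 ± 0.657 TPM) overlapped, and wild-type RPE and sclera/choroid (0.17 ± 0.0458 TPM) overlapped at the bottom. Retina exceeded RPE 6.21-fold in wild type and 1.88-fold in mutants by mean TPM, so the tissues lay closer together in the mutants. Genes with a lower mean level made up 26.2% of all genes for DRD3 in wild-type RPE and 60.0% in mutant RPE.

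DRD3's place among the dopamine receptor genes moved with these levels. Summed over the 12 dopamine receptor genes in the tables, DRD3 held 0.546% ± 0.129 (SD, n = 3) of the TPM in wild-type RPE and 13.0% ± 1.67 in mutant RPE, where its rank by mean went from 7 to 3. In sclera/choroid its share went from 0.958% ± 0.0135 to 21.9% ± 1.25 and its rank from 8 to 2. In retina the share was 0.824% ± 0.211 in wild type and 7.18% ± 0.533 in mutants, beside a summed dopamine receptor level of 205 TPM in wild type and 179 TPM in mutants.

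DRD2 had its highest level in retina in both genotypes, and mutants were higher in retina, whole eyes and, at low counts, sclera/choroid. Wild-type retinas measured 7.96, 9.22 and 6.8 TPM, and mutant retinas 15.78, 14.37 and 15.09 TPM. Wild-type whole eyes measured 3.26, 2.6 and 4.02 TPM, and mutant whole eyes 7.09, 9.27 and 8.09 TPM. In neither tissue did the genotypes overlap, and the ratios of the means were 1.89 in retina and 2.47 in whole eyes.

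Outside the retina DRD2 was scarce. Wild-type RPE measured 0.45, 0.59 and 0.64 TPM and mutant RPE 0.83, 0.38 and 0.63 TPM, from 8 to 18 counts across both, and the genotypes overlapped. In sclera/choroid the wild-type libraries measured 0.38, 0.28 and 0.28 TPM and the mutants 0.52, 0.7 and 0.49 TPM. They did not overlap and the ratio of the means was 1.82, but each value rested on 6 to 17 counts.

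The fitted log2 differences of DRD2 between mutant and wild type were 1.21 (SE 0.196) in whole eyes, −0.07 (SE 0.465) in RPE, 0.90 (SE 0.147) in retina and 0.90 (SE 0.444) in sclera/choroid. By group mean, mutant retina (15.1 ± 0.705 TPM, SD, n = 3) stood above mutant whole eyes (8.15 ± 1.09 TPM) and wild-type retina (7.99 ± 1.21 TPM), which overlapped. Wild-type whole eyes followed at 3.29 ± 0.711 TPM. Mutant RPE (0.613 ± 0.225 TPM), mutant sclera/choroid (0.57 ± 0.114 TPM) and wild-type RPE (0.56 ± 0.0985 TPM) overlapped one another, and wild-type sclera/choroid was lowest at 0.313 ± 0.0577 TPM. Of the summed dopamine receptor TPM in retina, DRD2 held 3.93% ± 0.882 in wild type and 8.48% ± 0.905 in mutants. The other gene with this symbol, ENSDARG00000056926, averaged 1.2 TPM in wild-type retina and 0.967 TPM in mutant retina.

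ADRB3 had the opposite distribution, with its highest level in the dissected RPE, which also held RNA of endothelial and red blood cell markers. Wild-type RPE measured 22.7, 28.57 and 22.96 TPM, and mutant RPE 14.42, 17.74 and 14.74 TPM. The genotypes did not overlap, and wild type exceeded mutants 1.58-fold by mean. In sclera/choroid the wild-type libraries measured 5.57, 5.02 and 5.2 TPM and the mutants 3.16, 3.14 and 2.85 TPM, again without overlap and with wild type 1.73-fold higher.

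In retina the order of genotypes for ADRB3 was the other way. Wild-type retinas measured 0.65, 0.49 and 0.66 TPM, from 12 to 15 counts, and mutant retinas 2.08, 1.71 and 2.5 TPM, from 40 to 51 counts. Every mutant retina was higher than every wild-type retina, and the ratio of the means was 3.49. Whole eyes overlapped, with 3.7, 3.5 and 2.98 TPM in wild type and 3.74, 2.95 and 2.99 TPM in mutants.

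The fitted log2 differences of ADRB3 were −0.17 (SE 0.193) in whole eyes, −0.83 (SE 0.134) in RPE, 1.76 (SE 0.32) in retina and −0.96 (SE 0.176) in sclera/choroid. Its group means ran from 24.7 ± 3.32 TPM (SD, n = 3) in wild-type RPE and 15.6 ± 1.83 TPM in mutant RPE to 5.26 ± 0.28 TPM in wild-type sclera/choroid. Wild-type whole eyes (3.39 ± 0.372 TPM), mutant whole eyes (3.23 ± 0.445 TPM) and mutant sclera/choroid (3.05 ± 0.173 TPM) overlapped as neighbours. Mutant retina followed at 2.1 ± 0.395 TPM and wild-type retina was lowest at 0.6 ± 0.0954 TPM. Among 15 adrenergic receptor genes ADRB3 ranked 1 by mean TPM in wild-type RPE, with 22.0% ± 1.86 of their sum, and 2 in mutant RPE, with 16.5% ± 1.42. In retina its rank went from 11 in wild type to 4 in mutants.

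**Figure D2:**
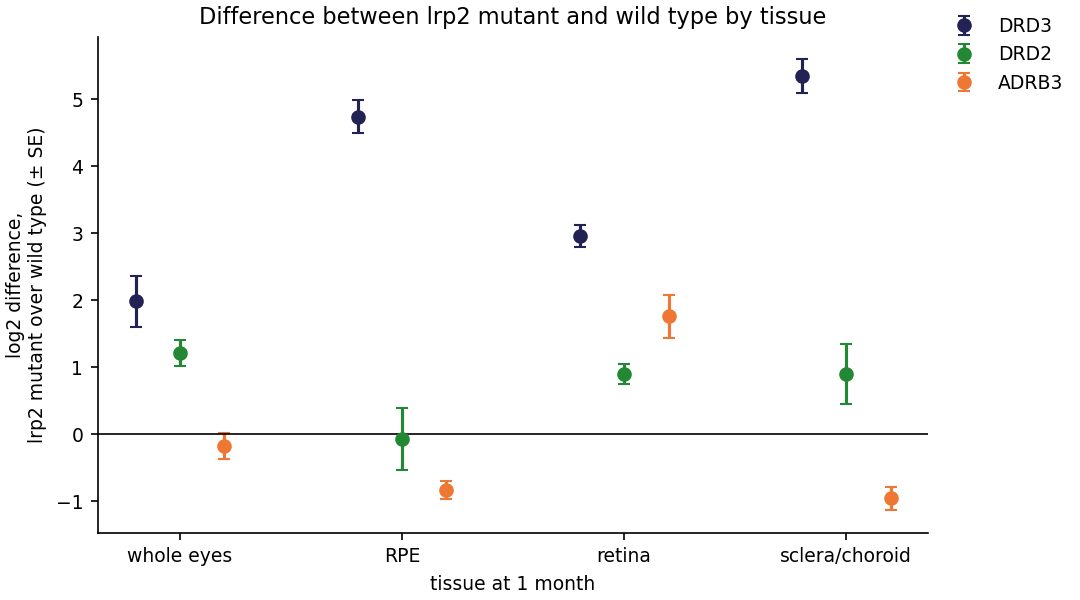
Fitted log2 difference between lrp2 mutant and wild type for each receptor gene in each tissue of 1 month, with its standard error; the line at 0 marks equal levels. DRD3 lies above 0 in all 4 tissues, up to 5.34 in sclera/choroid, while ADRB3 lies at 1.76 in retina and at −0.83 and −0.96 in RPE and sclera/choroid.

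Without overlap of the genotypes were all 3 genes in retina and sclera/choroid, DRD3 and ADRB3 in RPE, and DRD3 and DRD2 in whole eyes. Of all genes tested, 36.5% did not overlap between the genotypes in retina, 35.9% in sclera/choroid, 27.4% in RPE and 21.0% in whole eyes. Across the same genes, edgeR's quasi-likelihood test with Benjamini-Hochberg adjustment called 0.934% in whole eyes, 1.37% in RPE, 19.5% in retina and 6.64% in sclera/choroid at an adjusted p under 0.05. Since the 3 genes were picked from these contrasts, nothing is read from that background. The difference between mutant and wild type was also compared between tissues, in a fit over all 24 libraries of 1 month. There edgeR called 1.92% of genes for RPE minus retina, 2.44% for sclera/choroid minus retina and 0.683% for sclera/choroid minus RPE. Relative to retina, the log2 difference of ADRB3 was lower by 2.58 (SE 0.243) in RPE and by 2.74 (SE 0.248) in sclera/choroid, and that of DRD3 was higher by 1.78 (SE 0.427) and 2.37 (SE 0.447). For sclera/choroid minus RPE the values were 0.59 (SE 0.511) in DRD3, 0.95 (SE 0.41) in DRD2 and −0.15 (SE 0.215) in ADRB3.

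Endothelial markers were followed beside ADRB3. Summed over 6 marker genes, they reached 1060 to 1610 TPM in wild-type RPE and 1010 to 1620 TPM in mutant RPE, which overlapped. No marker was called there, beside 1.37% of all genes. In retina the markers summed to 39.0 to 40.6 TPM in wild type and 52.9 to 63.2 TPM in mutants. There 3 of the 6 were called higher, beside 19.5% of all genes called in either direction. Sclera/choroid had 170 to 314 TPM in wild type and 151 to 206 TPM in mutants, with none of the 6 called, beside 6.64% of all genes. The median log2 difference of the 6 markers was −0.101 in RPE, 0.536 in retina and −0.704 in sclera/choroid, beside 0.0259, −0.00711 and 0.00143 over all genes. None of the endothelial markers was at 0 in all 3 libraries of any group. Red blood cell markers summed to 15200 to 19000 TPM in wild-type RPE and 2510 to 4490 TPM in mutant RPE, without overlap. Of these markers, 1 of the 4 tested was called lower there, beside 1.37% of all genes. In sclera/choroid they summed to 222 to 713 TPM in wild type and 178 to 238 TPM in mutants, and in retina to 139 to 172 and 113 to 173 TPM, overlapping in both. The part of either marker list in the ADRB3 differences was not tested.

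**Figure D3:**
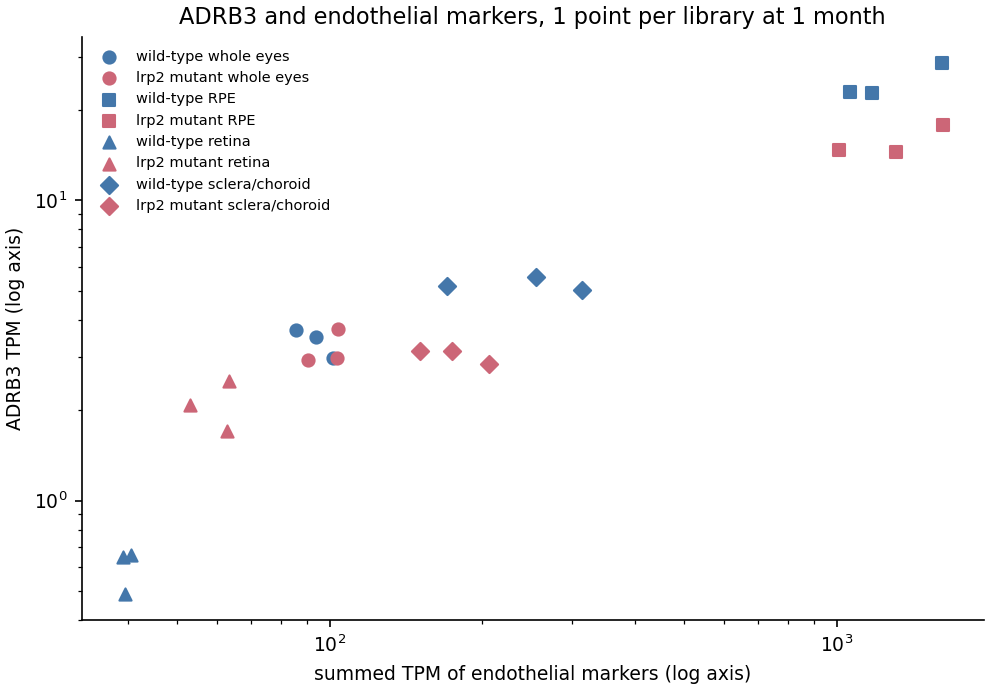
ADRB3 in TPM against the summed TPM of 6 endothelial marker genes, both on log axes, with 1 point for each library of 1 month. RPE libraries lie at the upper right, above 1000 TPM of markers, and retinal libraries at the lower left; mutant retinas lie higher on both axes than wild-type retinas, and mutant RPE lies lower on the ADRB3 axis within the same marker range.

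Dopaminergic amacrine markers were followed beside DRD3 and DRD2. In retina the 6 genes summed to 63.7 to 86.2 TPM in wild type and 61.2 to 83.2 TPM in mutants, which overlapped. By the test none was higher and 1 lower, SLC18A2 (log2 change −0.74, edgeR adjusted p = 0.0492), beside 19.5% of all genes called. The median log2 difference of the 6 was −0.0533, and 1 of them lay above 0. TH, which codes for tyrosine hydroxylase and makes the dopamine precursor, averaged 9.85 ± 2.14 TPM in wild-type retina and 12.5 ± 0.225 TPM in mutant retina (SD, n = 3). SLC6A3, the dopamine transporter, averaged 13.5 ± 2.15 and 12.9 ± 1.7 TPM, and neither gene passed the test there. Other cell types in the dissections varied too: markers of corneal and surface epithelium summed to 72400 to 88700 TPM in wild-type and 67500 to 75700 TPM in mutant sclera/choroid, and to 418 to 18700 TPM over the mutant RPE libraries. DRD3 spanned 5.94 to 7.34 TPM over those 3 mutant RPE libraries, and the part of these cells in the results was not tested.

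Wild-type tissues differed in all 3 genes. Beside 69.1% of genes called between RPE and retina, DRD3 was lower in RPE by a log2 difference of −2.55 (SE 0.376, edgeR adjusted p = 2.33e-04) and DRD2 by −3.53 (SE 0.273, edgeR adjusted p = 3.13e-06). ADRB3 was higher in RPE by 5.61 (SE 0.182, edgeR adjusted p = 6.22e-08), a 41.2-fold ratio of mean TPM. The same wild-type libraries also enter the lrp2 comparisons that chose the genes. The p-values of the 3 genes between wild-type tissues are therefore not independent of that choice. With most genes called between these tissues, a call by itself sets none of the 3 apart. All 6 endothelial markers were called higher in RPE than in retina too, with a median log2 difference of 6.13. All 6 were lower in sclera/choroid than in RPE (median −2.27), beside 46.2% of all genes called. The part of endothelial cells in the ADRB3 level of RPE was not tested.

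Between sclera/choroid and retina, where 73.5% of genes were called, the directions were the same. DRD3 was lower in sclera/choroid by −2.82 (SE 0.39, edgeR adjusted p = 1.28e-04), DRD2 was lower by −4.31 (SE 0.294, edgeR adjusted p = 1.11e-06) and ADRB3 was higher by 3.67 (SE 0.177, edgeR adjusted p = 1.64e-07). Sclera/choroid against RPE called 46.2% of genes and ADRB3 was lower by −1.94 (SE 0.144, edgeR adjusted p = 1.11e-05). DRD3 (−0.27, SE 0.417, edgeR adjusted p = 0.688) and DRD2 (−0.78, SE 0.309, edgeR adjusted p = 0.0781) did not pass the threshold between those tissues.

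Between wild-type RPE and retina, where 69.1% of all genes were called, the called dopamine receptor genes were lower in RPE and most called adrenergic receptor genes higher. Of 7 dopamine receptor genes tested, 5 were lower in RPE and none higher, or 3 of 5 without DRD3 and DRD2, among them drd4a (log2 difference −3.71), drd1a (−3.72) and DRD1 (−2.81). Of 13 adrenergic receptor genes, 10 were higher in RPE, or 9 of 12 without ADRB3, including ADRA1D (4.62), adra2da (4.28) and ADRA2B (3.50), alpha receptors for noradrenaline. ADRA2A was the only adrenergic gene called lower in RPE, by −2.51. Medians of the tested genes other than the 3 were −2.81 for dopamine and 1.76 for adrenergic receptors, beside 0.0335 over all genes.

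Sclera/choroid against retina, beside 73.5% of all genes called, gave 6 of 7 dopamine receptor genes lower, or 4 of 5 without DRD3 and DRD2, and 7 of 13 adrenergic receptor genes higher, with 2 lower. Against RPE, beside 46.2% called, sclera/choroid had 4 dopamine receptor genes lower and 10 adrenergic genes lower. There 2 adrenergic genes were higher, ADRA2A (2.09) among them. By level, drd4a led the dopamine receptors at 78.7 TPM in wild-type retina and drd4b was the most abundant of them in wild-type RPE at 35.2 TPM. ADRA2B (22.3 TPM) and ADRA1D (20.6 TPM) came next to ADRB3 in wild-type RPE. The second gene of the beta type closest in name, adrb3b, averaged at most 0.353 TPM in any group.

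**Figure D4:**
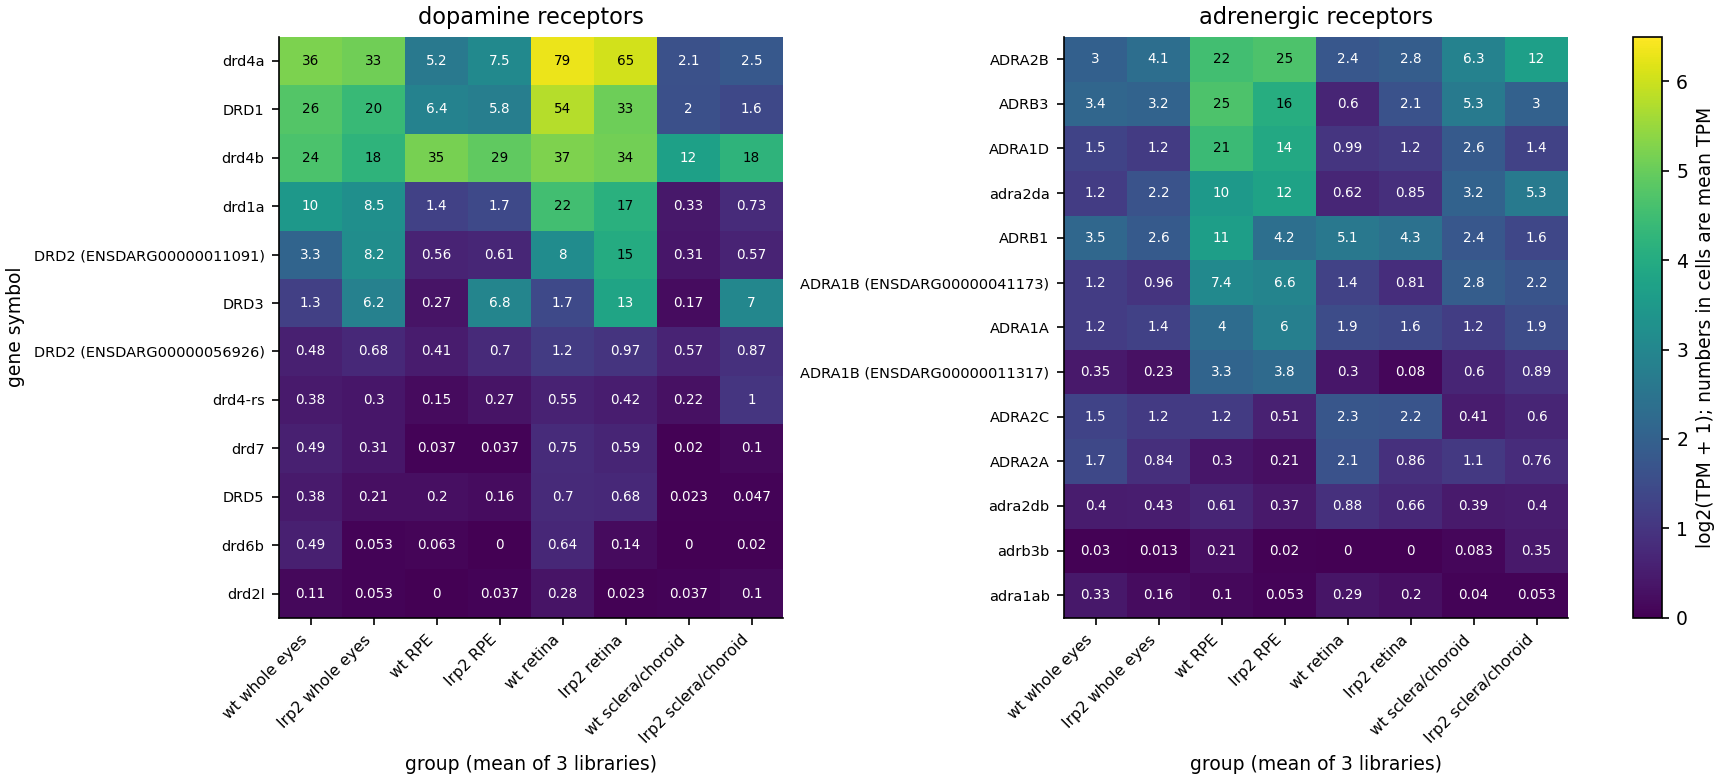
Mean level of dopamine receptor genes (left) and adrenergic receptor genes (right) in the 8 groups of 1 month, each the mean of 3 libraries, as a heat map of log2(TPM + 1) from dark (low) to yellow (high), with the mean TPM in each cell. DRD3 is brighter in each mutant column than in the wild-type column beside it, drd4a, drd4b and DRD1 are bright in retina, and the row of ADRB3 is brightest in wild-type RPE.

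In the lrp2 comparison of retina, 3 other receptor genes fell, against 19.5% of all genes called. DRD1 (ENSDARG00000038918), a stimulatory dopamine receptor, went from 53.7 ± 6.14 to 32.7 ± 7.77 TPM (SD, n = 3) with a log2 change of −0.75 (SE 0.16, edgeR adjusted p = 0.0155). It missed the threshold without wild-type retina replicate 11 (edgeR adjusted p = 0.0642) and without mutant retina replicate 12 (edgeR adjusted p = 0.0709). ADRA2A, an inhibitory receptor for noradrenaline, went from 2.13 ± 0.186 to 0.863 ± 0.0416 TPM with −1.34 (SE 0.317, edgeR adjusted p = 0.0172), and passed under 7 of 12 alternatives, with a highest edgeR adjusted p of 0.0717. The related drd1a changed by −0.45 (SE 0.137, edgeR adjusted p = 0.0473) but passed under 0 of 12 alternatives. The other receptor genes were not called in any lrp2 comparison of whole eyes, RPE or sclera/choroid, where edgeR called 0.934%, 1.37% and 6.64% of genes. Without the 3 genes, the median log2 difference of tested dopamine receptors was 0.135 in RPE, −0.329 in retina and 0.449 in sclera/choroid, and that of adrenergic receptors −0.198, −0.309 and 0.25.

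Of the genes that make, store and clear catecholamines, 4 of 18 tested fell in mutant retina and none rose, a share near the 19.5% called over all genes there. These were SLC18A2 (log2 change −0.74, edgeR adjusted p = 0.0492), the vesicular monoamine transporter, mao (−0.45, edgeR adjusted p = 0.00489), which breaks monoamines down, and 2 genes for QDPR, which regenerates the cofactor of tyrosine hydroxylase. SLC18A2 passed under 2 of 12 alternatives and mao under 11. In RPE 1 of 17 fell, beside 1.37% of all genes called, SPR (ENSDARG00000058553), a late enzyme of cofactor synthesis, from 30.7 ± 7.82 to 9.2 ± 1.63 TPM (SD, n = 3; log2 change −1.90, edgeR adjusted p = 0.0285), which passed under 6 of 12 alternatives. In sclera/choroid 3 of 15 fell, beside 6.64% of all genes called, SPR (−1.31, edgeR adjusted p = 0.0109, under 11 of 12 alternatives), gch2 (−1.08, edgeR adjusted p = 0.0439, under 5) and mao (−0.53, edgeR adjusted p = 0.0469, under 5). In zebrafish gch2 and its cofactor pathway also serve pteridine pigment. In whole eyes 0 of 19 were called, beside 0.934% of all genes.

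Downstream of the receptors, 9 of 32 genes of cyclic AMP signalling fell and 1 rose in mutant retina, where 19.5% of all genes were called. The largest were ADCY1 (ENSDARG00000088634; −0.96, edgeR adjusted p = 9.30e-05) and ADCY9 (−0.72, edgeR adjusted p = 0.0312), which make cyclic AMP, prkacbb (0.70, edgeR adjusted p = 0.00156), a protein kinase A subunit, and PDE10A (−0.66, edgeR adjusted p = 0.0142), which degrades cyclic nucleotides. Of 12 genes that switch off receptors or G proteins, 3 fell in retina, again beside 19.5% of all genes. These were ARRB1 (−1.02, edgeR adjusted p = 0.00109), an arrestin, and 2 genes for RGS9 (−0.79 and −0.39), which speeds the turn-off of G proteins. Among 12 G protein genes 1 rose and 1 fell, beside the same 19.5% of all genes. GNAI3 changed by 0.34 (edgeR adjusted p = 0.0484) and GNAI2 (ENSDARG00000018174) by −0.29 (edgeR adjusted p = 0.0245), both inhibitory alpha subunits. ARRB1 and prkacbb passed under 12 of 12 alternatives, ADCY9 under 6 and GNAI3 under 1. In the same retinas 11 of 14 rod markers, 2 of 6 bipolar markers and 3 of 6 Mueller glia markers were called lower. Of 12 cone markers 5 were called lower and 4 higher. Among 9 amacrine and horizontal and 8 ganglion markers tested, 1 of each list was higher and 1 lower. The part of these cells in the changes was not tested. Rod markers summed to 44000 to 50200 TPM in wild-type and 38000 to 42600 TPM in mutant retina, and Mueller glia markers to 3560 to 4090 and 3250 to 3670 TPM. The Mueller glia list summed to 5510 to 7150 TPM in wild-type sclera/choroid, so it is not specific to retina. Outside retina the calls were RGS2 in whole eyes (−2.10, edgeR adjusted p = 0.0303, under 8 of 12 alternatives) and ADCY8 in sclera/choroid (2.30, edgeR adjusted p = 0.0237, under 6).

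Of 18 catecholamine genes tested in wild-type eyes, 11 were higher and 3 lower in RPE than in retina, a share called not far from the 69.1% of all genes. TH (−6.19) and SLC6A3 (−4.66) were lower and gch2 (5.24) and SPR (ENSDARG00000058553, 5.03) higher, the 4 largest log2 differences. TH averaged 0.107 TPM in wild-type RPE, where ADRB3 was highest.

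The genes whose levels over the 8 group means of 1 month were most like each receptor gene were found by Pearson's r of log2(TPM + 1) among 23881 genes, as a description over groups that share libraries. DRD3 was most like ENSDARG00000055551 (r = 0.985), si:dkey-47k20.6 (0.982), si:dkey-19d21.1 (0.981), si:dkey-199f5.6 (0.981) and si:ch211-250o15.5 (0.973). The second of these averaged 5.83 TPM in wild-type and 38.4 TPM in mutant RPE, and 11.2 and 122.0 TPM in retina. DRD2 was most like sun1a (0.997), pcdh2ab11 (0.996), CACNG5 (ENSDARG00000039240; 0.996), ypel2a (0.995) and si:ch211-14i3.2 (0.994), which were high in retina and higher in mutant retina. For example, sun1a averaged 18.0 TPM in wild-type retina, 46.2 TPM in mutant retina and 0.92 TPM in wild-type RPE.

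ADRB3 was most like clec14a (0.986), NFE2 (0.986), lrrc15 (0.983), kdrl (0.983) and ptprb (0.982). Of these, clec14a, kdrl and ptprb are known from vascular endothelium, and kdrl codes for a receptor of vascular endothelial growth factor. In retina clec14a averaged 5.97 TPM in wild type and 14.3 TPM in mutants, and in sclera/choroid 46.4 and 24.2 TPM. In RPE kdrl averaged 375 and 341 TPM. The 3 receptor genes were not alike among themselves, with r of 0.462 between DRD3 and DRD2, −0.28 between DRD3 and ADRB3 and −0.685 between DRD2 and ADRB3.

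The chromosomal neighbours of DRD3 were examined in the lrp2 comparisons. Of the 30 nearest genes in RefSeq's gene order, 20 matched the tables. In RPE and sclera/choroid 0 of 19 and 0 of 20 tested were called, beside 1.37% and 6.64% of all genes, and their log2 differences lay between −1.47 and 0.739 and between −1.34 and 0.344. In retina 2 of 18 were called, cst14a.2 (0.38) and spice1 (−0.96), beside 19.5% of all genes, with a highest difference of 1.15. In whole eyes 0 of 20 were called, beside 0.934%, with differences between −1.17 (spice1) and 0.266.

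In larval eyes none of the 3 genes passed the test with either transgene. DRD3 measured 1.98, 1.52 and 2.58 TPM in bmp4 controls and 2.24, 1.72 and 2 TPM in bmp4 transgenics, which overlapped (log2 change −0.18, SE 0.255, edgeR adjusted p = 0.999). DRD2 measured 1.59, 1.37 and 1.39 TPM in controls and 1.51, 1.51 and 0.76 TPM in transgenics (−0.29, SE 0.3, edgeR adjusted p = 0.999). ADRB3 measured 1.34, 0.86 and 0.88 TPM against 1.1, 0.72 and 0.86 TPM (−0.26, SE 0.33, edgeR adjusted p = 0.999). The bmp4 comparison called 0.105% of genes, 22 in number, and 609 with the replicate number as a block, which called none of the 3 either.

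With shha, DRD3 measured 1.32, 1.2 and 1.28 TPM in controls and 1.17, 1.22 and 1.13 TPM in transgenics. The fitted change was 0.56 (SE 0.384, edgeR adjusted p = 0.9) and its direction was the opposite on log2 TPM (−0.08). DRD2 measured 1.84, 1.83 and 1.69 TPM in controls and 1.98, 2.11 and 0.23 TPM in transgenics (−0.21, SE 0.536, edgeR adjusted p = 0.911). The low value of 0.23 TPM belongs to transgenic replicate 13, a library that stood apart: its amacrine markers summed to 447.8 TPM against 931.7 and 1050 in the other transgenics, and its dopaminergic amacrine markers to 15.92 TPM against 43.81 and 50.94. Without it the DRD2 change was 0.19. ADRB3 measured 0.97, 1.26 and 1.05 TPM in controls and 1.26, 1.63 and 0.68 TPM in transgenics (0.41, SE 0.303, edgeR adjusted p = 0.9). This comparison called 0.0% of genes with edgeR, 113 at an unadjusted p under 0.05, 2 with DESeq2 and 0 with limma. With the replicate number as a block it called 0 too. SHH (ENSDARG00000068567) had 785.5 to 3426.2 counts in shha transgenic libraries and 179.01 to 452.0 in their controls. Its log2 change of 3.0 was not called either (edgeR adjusted p = 0.9). The other gene with this symbol, ENSDARG00000038867, changed by 0.48. The lack of a call for the 3 genes therefore does not show equal levels. In the fit without the replicate block, no gene of the receptor or signalling lists was called with either transgene. Calls of the other list genes with the block are not given here for bmp4.

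**Figure D5:**
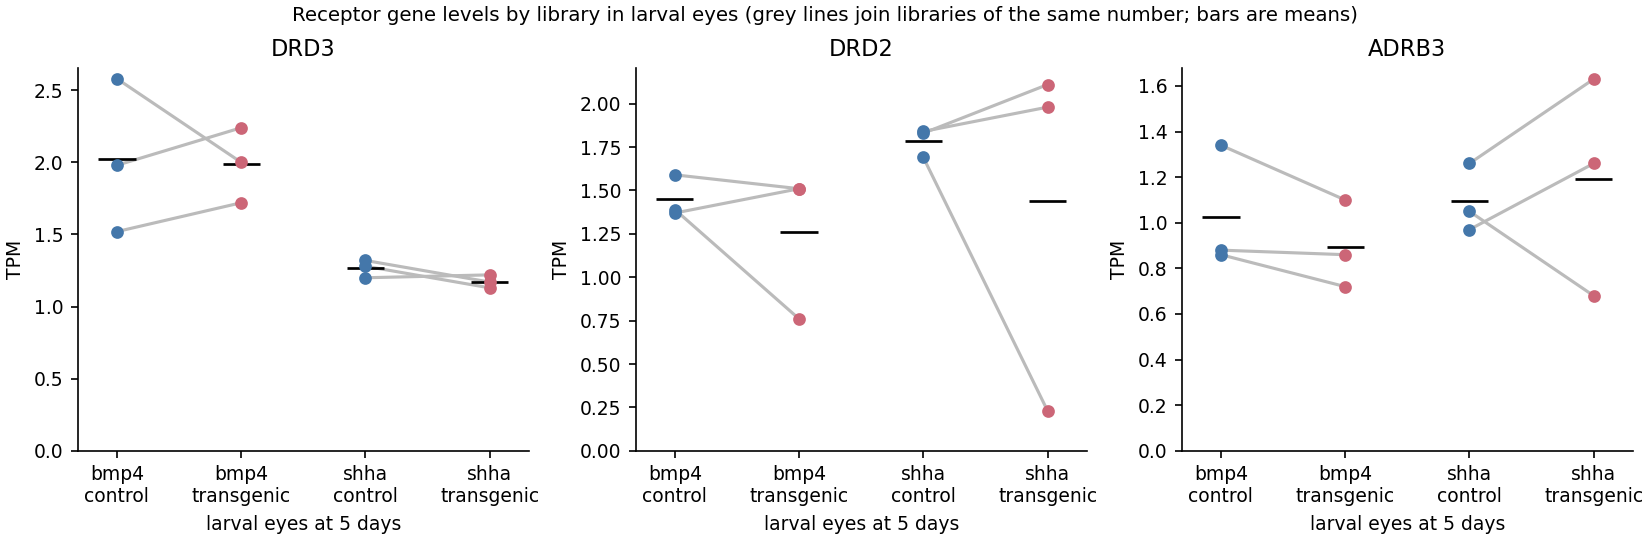
Level of each receptor gene in TPM in every library of larval eyes at 5 days, for controls and transgenics of bmp4 and shha; points are libraries, bars are means of 3 and grey lines join libraries of the same number. Controls and transgenics overlap for all 3 genes, and the lowest DRD2 point, at 0.23 TPM, is shha transgenic replicate 13.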

How the data were processed

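RNA-seq tables of 36 libraries were used. The authors deposited expected counts per gene, which need not be whole, and TPM, which scales each library to a common total and corrects for length. The submitters' processing notes name Bowtie2, HISAT and the build GRCz10, with no roles or versions. Sequences are not used here, and coordinates served only to put RefSeq's genes around DRD3 in order. The kit's strandedness is not given in the sources used here, so overlapping antisense genes cannot be told apart, and the genes named DRD2 may share reads. Of 31916 IDs, 26108 carry a symbol.

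Expected counts were rounded and tested in R 4.3.3 with edgeR 4.0.16 (filterByExpr, TMM, robust quasi-likelihood fit), adjusted by Benjamini-Hochberg over all genes tested, at 0.05; SE is the log2 change over the root of F. Each two-group comparison used its 6 libraries, the wild-type tissues 9 and the comparisons of mutant differences between tissues 24. Levels are the deposited TPM. Alternatives were DESeq2 1.42.0, limma 3.58.1 on log2(TPM + 0.5), RLE scaling, no filter, a replicate block, 1 fit of 24 libraries and leaving out each library. Fits were tested on simulated data. Larval replicate numbers pair the samples: same-numbered libraries deviated together (correlations 0.449, 0.477 and 0.588 for bmp4 and 0.254, 0.381 and 0.248 for shha). The larval log2 changes, SE and adjusted p-values given for single genes come from the fit without this pairing. Same-numbered wild-type libraries of 1 month had correlations of 0.261, 0.156 and 0.0277 between sclera/choroid and RPE. In comparisons with retina these were 0.0117 to 0.108. Whether such libraries came from the same fish is not stated, and the main fit of wild-type tissues treated them as independent.

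The 3 genes and the gene lists were chosen with earlier results of these data known. Named were every other dopamine or adrenergic receptor gene called in an lrp2 comparison, some of those called between wild-type tissues, and the abundant ones. Called between wild-type tissues but not described were, among others, ADRB1, ADRA1A, the ADRA1B genes and ADRA2C. Of other lists at most 4 called genes with the largest change were named. The 5 genes most like each of the 3 came from those with at least 1 TPM in a group. A receptor that the rule would name is not reported here.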

Additional observations from a re-analysis of the deposited data

Results flagged for a closer look

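The difference of ADRB3 between lrp2 mutant and wild type had opposite directions in different tissues. All 3 mutant libraries were lower than all 3 wild-type libraries in RPE and in sclera/choroid, and all 3 were higher in retina. Of all genes tested, 27.4% did not overlap between the genotypes in RPE, 35.9% in sclera/choroid and 36.5% in retina. The log2 difference of ADRB3 in RPE minus that in retina was −2.58 (SE 0.243), and that in sclera/choroid minus retina was −2.74 (SE 0.248). ADRB3 was chosen from these contrasts, so both values are given without a test. Over 14 alternatives they ranged from −2.74 to −1.88 and from −2.82 to −1.93. The wild-type retinal level rested on 12 to 15 counts per library. Of 6 endothelial markers, 3 were called higher in mutant retina (median log2 difference 0.536), beside 19.5% of all genes called there. The sums of these 6 markers overlapped between the genotypes in RPE (median −0.101) and in sclera/choroid (median −0.704). None of the 6 was called in either tissue, beside 1.37% and 6.64% of all genes. Red blood cell markers summed to 15200 to 19000 TPM in wild-type RPE and 2510 to 4490 TPM in mutant RPE. The part of these cells in the difference was not tested.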

How the results depend on the processing

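Of 462 recomputed values of the 3 genes, 16 changed sign; the cause of this and of the other shifts was not tested. The lrp2 differences of the 3 genes are given as values without a test here too. The lrp2 differences in retina of all 3 genes, and those of DRD3 in every tissue, kept their direction under every alternative run. The wild-type differences of all 3 genes between retina and the other tissues also kept their call. The lowest values of DRD3 came from limma on log2(TPM + 0.5), which understates the change of low genes: 3.25 in RPE and 3.49 in sclera/choroid, against 4.74 and 5.34 in the fitted counts, with 0.625 and 0.872 for the same tissues relative to retina. The replicate block, where numbers mark no stated pairing in the 1-month libraries, gave 4.78 for DRD3 and −0.873 for ADRB3 in RPE, from the 4 libraries with shared numbers, −0.952 for ADRB3 in sclera/choroid and 2.07 for DRD3 in whole eyes. DRD3 in whole eyes was 1.98 with DESeq2 and in the fit of 24 libraries. ADRB3 in RPE was −0.644 with limma and −0.801 with no filter.

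With 1 library left out, ranges were 1.07 to 1.35 for DRD2 in whole eyes, 4.63 to 4.82 for DRD3 in RPE, −0.908 to −0.753 for ADRB3 in RPE, −1.02 to −0.871 for ADRB3 in sclera/choroid and 1.64 to 1.93 for DRD3 in RPE minus retina. Ranges that crossed 0 were −0.335 to 0.19 for DRD2 in RPE, −0.362 to 0.0574 for DRD3 with bmp4, −0.494 to 0.193 for DRD2 with shha, −0.107 to 0.181 for DRD2 in sclera/choroid minus retina and −0.167 to 0.00212 for ADRB3 in sclera/choroid minus RPE. Signs also changed with limma for DRD2 in RPE (0.0547), DRD3 with shha (−0.0781) and, between wild-type sclera/choroid and retina, ADCY6 (ENSDARG00000027797, −0.156), GNAI3 (−0.133) and GNAS (−0.0433), and with DESeq2 for DRD2 in sclera/choroid minus retina (0.0311). On log2 TPM the median of all genes shifted by up to −0.477, in wild-type sclera/choroid against retina.

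Calls over all genes depended on the setting. Whole eyes gave 200, and 1008 with DESeq2, 409 with the block, 461 in the fit of 24 libraries and 1 without mutant replicate 3. RPE gave 289, and 1766, 0 and 1994 in that order, with 4 as the lowest on leaving out a library. Sclera/choroid gave 1404, and 2945, 368 and 2250, with 355 without mutant replicate 12. Retina gave 3909, and 1745 in the fit of 24 libraries. The bmp4 comparison gave 22, and 101 with DESeq2, 11 with limma, 609 with the block and 6 without transgenic replicate 11. For mutant differences compared between tissues, DESeq2 raised the calls from 459 to 1148 in RPE minus retina. They went from 583 to 1406 in sclera/choroid minus retina and from 163 to 626 in sclera/choroid minus RPE. Wild-type DRD3 in RPE and sclera/choroid, at 4 to 7 counts per library, sets the limit of depth for its ratios.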
